A study of Mus musculus with 12 samples.

Results

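The 36 genes described here carry glucose through glycolysis to lactate and out of the cell. They were listed by their place in the pathway, with earlier results of these data known, and cover glucose uptake, the steps of glycolysis, the control of pyruvate dehydrogenase and the lactate carriers with their partner basigin. All 36 were among the 32761 genes of the count table and all 36 passed the filter on low counts that left 17965 genes for testing. RNA came from mouse corneal endothelium in 4 groups of 3 libraries: early mutant, early wild type, late mutant and late wild type. The mutant mice are homozygous for the Q455K change in Col8a2, which encodes a collagen chain of Descemet's membrane, and serve as a model of Fuchs endothelial corneal dystrophy. Early mice were at most 2 months old and late mice at least 8 months old. The early samples carry the batch label 1 and the late samples the label 2, so stage and batch cannot be told apart, and genotypes are compared within a stage. The labels call the libraries biological replicates. The sources used here do not give the strain, the sex or the number of eyes or mice behind a library. The mutation is carried in every cell of the animal, so a difference between genotypes is not restricted to the endothelium by design.

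Glycolysis splits glucose into pyruvate with a small yield of ATP, and lactate dehydrogenase converts pyruvate to lactate while restoring the NAD+ that glycolysis needs. Lactate leaves the cell with a proton through monocarboxylate transporters, which need a chaperone such as basigin to reach the membrane. The corneal endothelium is a single cell layer that keeps the cornea clear by pumping ions, and with them water, out of the stroma into the aqueous humour. It takes glucose from the aqueous humour, spends ATP on the Na+/K+ pump, and its coupled transport of lactate and bicarbonate is part of that fluid pump.

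Library totals ran from 19722598 to 39431676 counts, at which 3 counts correspond to 0.0773 to 0.132 CPM (counts scaled to library size, here after TMM scaling between libraries). Markers of corneal endothelium were present in every library, with 10 of 11 in the table and a summed level of 10365 to 15118 CPM in early mutants, 8509.7 to 11420 CPM in early wild type, 10302 to 12905 CPM in late mutants and 6790 to 13694 CPM in late wild type. Late wild-type replicates 1, 2 and 3 had 13694, 7517 and 6790 CPM, so the late sums overlap only through replicate 1. Late, every mutant library lay above every wild-type library for 1 of the 10 markers and below for 4. Over all genes tested these shares were 14.9% and 10.9%. Late wild-type replicate 1 stood apart the most. It was at least 1.5-fold above or below both other late wild-type libraries for 12 of the 28 members with a mean of at least 5 CPM, and for 43.4% of all such genes. It lay above them for Slc2a1, Slc2a3, Hk1, Gapdh, Pkm, Pdk2, Pdha1 and Slc16a3, and below them for Pfkl, Pfkfb3, Ldhb and Pdhb. Late wild-type replicate 3 was below both others by the same measure for 7 of the 28 members, and apart for 9.67% of all such genes. These 7 were Aldoa, Tpi1, Pgam1, Eno1, Ldha, Pdk1 and Slc16a3. Early wild-type replicate 1 was apart for 6 members and for 21.7% of all such genes. Results without late wild-type replicate 1 are given below as well. They rest on late wild-type replicates 2 and 3, whose endothelium marker sums are the lowest of the 12 libraries.

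Markers of other cell types moved with genotype. Of 12 macrophage and myeloid markers, 6 rose in early mutants and 11 in late mutants. Their summed level was 268 to 558 CPM in early mutants against 33.6 to 66.3 CPM in early wild type, and 401 to 484 CPM in late mutants against 41.7 to 64.4 CPM in late wild type, with no marker at 0 in a whole group. The 12 photoreceptor markers summed to 197 to 396 CPM in early mutants against 37.8 to 79.5 CPM in early wild type, and to 111 to 344 CPM in late mutants against 82.8 to 132 CPM in late wild type. Of these, 3 rose early and 0 late by edgeR, where 7 had an unadjusted p under 0.05, DESeq2 called 5 and limma-voom 1. The 10 keratocyte markers summed to 23084 to 26193 CPM in early mutants and 19257 to 29593 CPM in early wild type, and to 21793 to 32812 CPM in late mutants and 21224 to 26705 CPM in late wild type. Within that list 2 rose and 0 fell early, and 3 rose and 1 fell late. Kera and Lum, keratan sulphate proteoglycans of the stroma, rose at both stages, by 2.43 and 2.23 on the log2 scale early and by 2.35 and 2.15 late, and late Angptl7 also rose, by 2.18 (not called without late wild-type replicate 1, adjusted p = 0.057), while Ptgds had a log2 fold change of -1.37. The 8 melanocyte and pigment epithelium markers summed to 91.9 to 232 CPM in early mutants against 30.8 to 44.5 CPM in early wild type, and to 84.3 to 119 CPM in late mutants against 10.7 to 128 CPM in late wild type. EdgeR called 0 of them at either stage, although 7 had an unadjusted p under 0.05 early and 0 late, and DESeq2 called 1 early and 0 late and limma-voom 0. The 6 red blood cell markers summed to 23 to 40.9 CPM in early mutants against 11 to 18.7 CPM in early wild type, and overlapped late. The 12 lens markers summed to 86.1 to 145 CPM in early mutants against 105 to 419.7 CPM in early wild type, and to 151 to 260.4 CPM in late mutants against 73.6 to 149 CPM in late wild type, with 3 of the 11 tested called higher late. Sums of the corneal epithelium, muscle and neuron and glia lists overlapped between genotypes at both stages. With the genotype effect averaged over both stages, edgeR called 10 of 12 macrophage and myeloid, 10 of 12 photoreceptor and 5 of 10 keratocyte markers, all higher. Over all genes the share called was 6.85%. There it also called 1 pigment, 1 red blood cell and 1 corneal endothelium marker higher, and 1 lens and 1 muscle marker lower. It called 0 corneal epithelium and 0 neuron and glia markers. The part of these cells in the results below was not tested, and in bulk RNA a change in the number of cells of a type and a change in RNA per cell cannot be told apart.

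**Figure D1:**
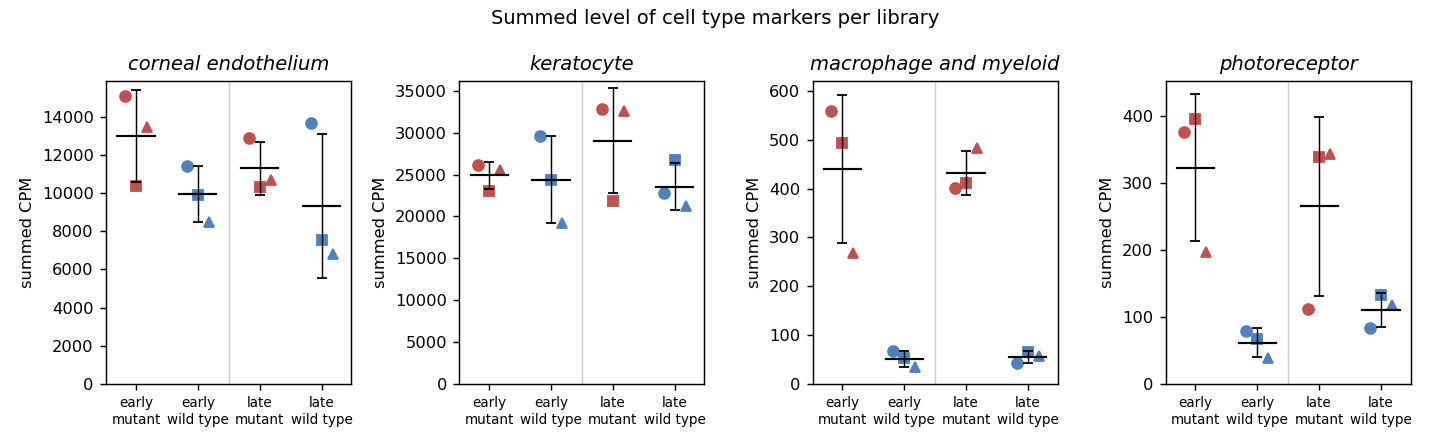
Summed level of 4 marker lists in each library, in CPM after TMM scaling on a linear axis that starts at 0. Red marks are mutant and blue marks wild-type libraries, the circle, square and triangle are replicates 1, 2 and 3, and the bar with whiskers is the mean ± SD of 3 libraries. Macrophage and myeloid markers reach at least 268 CPM in mutant libraries and at most 66.3 CPM in wild-type libraries. Corneal endothelium and keratocyte sums overlap between genotypes, the late endothelium sums only through late wild-type replicate 1.

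The genotypes were compared in 4 ways: early, late, the difference between the late and the early effect, and the effect averaged over both stages. Over the average, Pfkp, Eno3, Slc16a1 and Slc16a3 rose, so edgeR called 4 of 36 members against 6.85% of all genes tested (4.04% higher and 2.81% lower). DESeq2 called 6 members there, all higher, and limma-voom 10, of which 9 were higher and 1 lower, these 4 included in both. DESeq2 added Pgam1 and Eno2. Limma-voom added Slc2a1, Pgam1, Pkm, Ldha and Pdha1, which were higher, and Ldhb, which was lower. Of the 17965 genes DESeq2 called 2160 there and limma-voom 2306. In the edgeR fit 11 members had an unadjusted p under 0.05 over the average, against 24.3% of all genes, and 22 of 36 lay above 0, against 45%. In the late comparison edgeR called 1 member, Slc16a1, which rose, against 5.47% of all genes (2.77% higher and 2.71% lower), and 9 members had an unadjusted p under 0.05, against 28.1%. Late, DESeq2 called 4, Slc16a1 and Pfkp higher and Pfkl and Ldhb lower, and limma-voom called these and, higher, Slc2a1 and Pdha1. Of the 17965 genes DESeq2 called 2478 late and limma-voom 1728. In the early comparison edgeR called 0 of 36 members, against 0.59% of all genes (0.557% higher and 0.0334% lower). Of the 36, 10 had an unadjusted p under 0.05 there, against 8.77% of all genes, and 9 of those 10 were higher in mutants. DESeq2 called 2 early members, Pfkp and Slc16a3, and limma-voom called 1, Pfkp. Of the 17965 genes they called 237 and 148 early. The early median log2 fold change over members was 0.4, against -0.11 over all genes, with 26 of 36 members above 0 against 43.1% of all genes. Late, the median was -0.06 over members and 0 over all genes, with 16 of 36 above 0 against 50.1%. The late count turned on late wild-type replicate 1. Without it 12 members were called late, 13 over the average and 3 early. The count over all genes was then 3909 in the late comparison, and the late median moved to 0.36 over members and 0.27 over all genes. Fits without any 1 library called at most 3004 of all genes over the average and at most 179 early. Of the 12 late members, Pfkl, Pfkfb3 and Ldhb were lower in mutants, and Slc2a1, Pfkp, Pfkfb4, Pgam1, Eno2, Pkm, Pdha1, Slc16a1 and Slc16a3 were higher. The 3 early members were Pfkp, Pfkfb3 and Slc16a3, all higher. The 13 over the average included Ldhb, which was lower (log2 fold change -0.63, adjusted p = 0.038). They also included Slc2a1 (0.96, adjusted p = 0.0027) and Pdha1 (1.05, adjusted p = 0.0049), both higher.

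The groups can also be compared by overlap. Every early mutant library lay above every early wild-type library for 13 members, against 10.1% of all genes, and below for 3, Hkdc1, Pfkfb1 and Pfkfb2, against 11.8%. Late, 4 members lay wholly above, against 14.9% of all genes, and 4 wholly below, against 10.9%. Pfkp, Pgam1 and Slc16a1 lay wholly above at both stages, which 3.89% of all genes did, and 0 members lay wholly below at both, against 2.03%. Slc2a1, Hk1, Hk2, Pfkfb3, Aldoa, Tpi1, Gapdh, Eno3, Pdk1 and Slc16a3 lay wholly above early only and Pdk3 late only. Pfkl, Aldoc, Ldhb and Bsg lay wholly below in late mutants only. In the test of the difference between stages edgeR called 0 of 36 members, against 0.00557% of all genes, and DESeq2 and limma-voom also called 0. There 7 members had an unadjusted p under 0.05, against 11.2% of all genes, each with a lower late than early effect: Hk2, Pfkl, Pfkfb3, Aldoa, Aldoc, Pdk1 and Bsg.

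**Figure D2:**
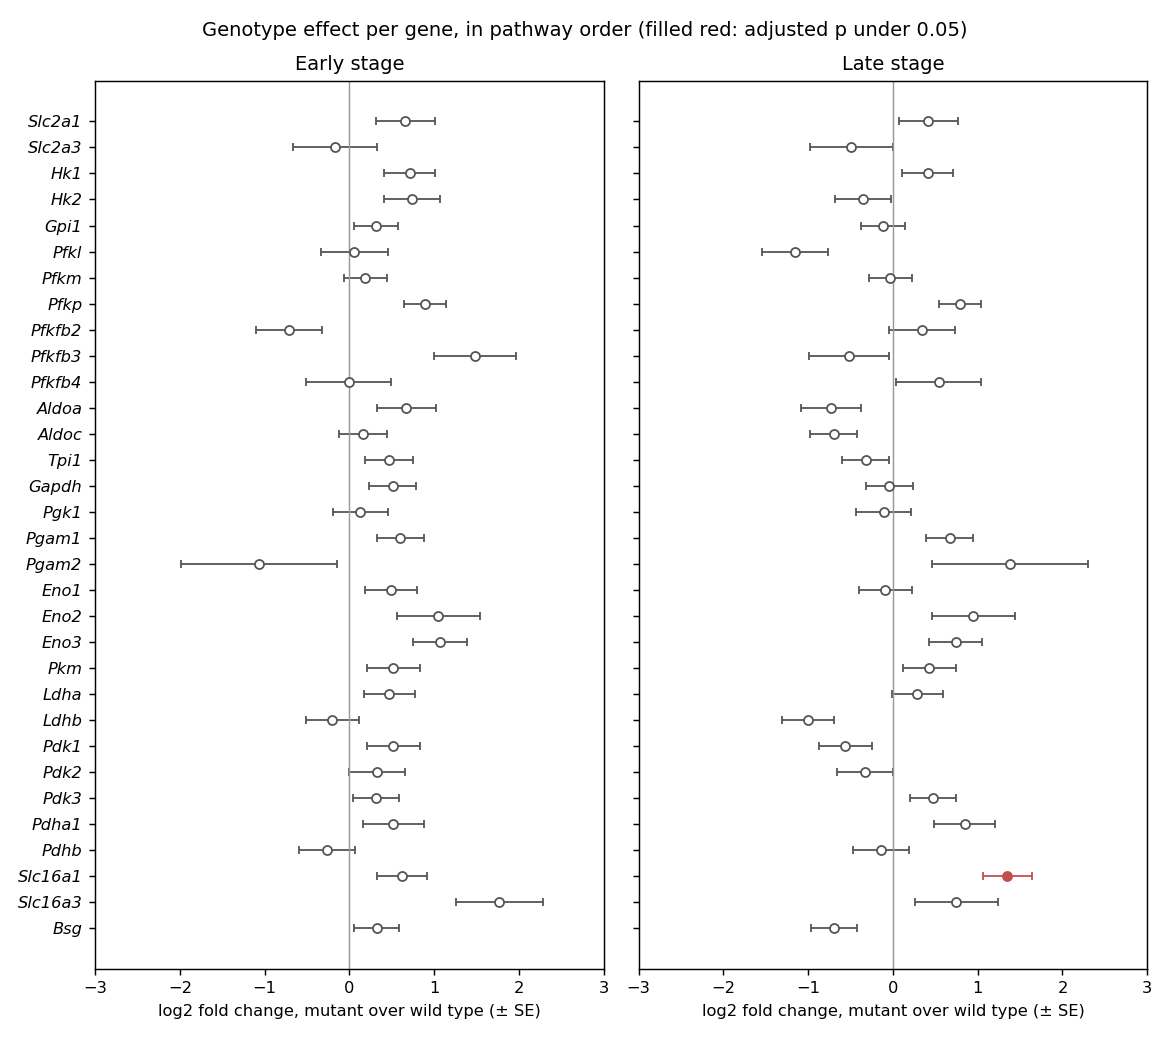
Log2 fold change of mutant over wild type with its standard error for 32 genes with a mean of at least 1 CPM, early on the left and late on the right, in pathway order from glucose uptake at the top to export at the bottom. A filled red point marks an adjusted p under 0.05, which only Slc16a1 late reaches. Most early points lie right of 0, and the late points lie on both sides.

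Both main lactate carriers were called higher over the average. Slc16a1 encodes MCT1, a widely expressed carrier that moves lactate in either direction. It stood at 21.7, 22.5 and 21.2 CPM in early mutants against 13.6, 16.2 and 12.8 CPM in early wild type, and at 32.8, 18.6 and 16.9 CPM in late mutants against 10.7, 8.67 and 7.42 CPM in late wild type. The genotypes do not overlap at either stage, and late mutant replicate 1 is the highest of the 12 libraries. The log2 fold change was 0.62 ± 0.29 early (SE, adjusted p = 0.56), 1.35 ± 0.29 late (adjusted p = 0.014) and 0.98 ± 0.21 over both stages (adjusted p = 0.0067). The averaged call held without each library in turn. The late call was lost without late mutant replicate 1 (log2 fold change 0.99, adjusted p = 0.095), late wild-type replicate 2 (1.33, adjusted p = 0.058) or late wild-type replicate 3 (1.24, adjusted p = 0.062), and without late wild-type replicate 1 the late log2 fold change was 1.63 (adjusted p = 0.0053). The authors' deposited table gives Slc16a1 a late log2 fold change of 1.29 with a q-value of 0.021.

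Slc16a3 encodes MCT4, the carrier used by highly glycolytic cells to release lactate. It stood at 45.4, 15.6 and 16.7 CPM in early mutants against 8.65, 9.63 and 4.66 CPM in early wild type, and at 17.2, 17.8 and 26.6 CPM in late mutants against 22.1, 9.95 and 4.43 CPM in late wild type. Early the genotypes do not overlap, and early mutant replicate 1 is far above the other mutant libraries. Late they overlap through late wild-type replicate 1. Its log2 fold change was 1.77 ± 0.51 early (SE, adjusted p = 0.21), 0.75 ± 0.49 late (adjusted p = 0.33) and 1.26 ± 0.35 over both stages (adjusted p = 0.041). That averaged call was the least stable of the 4 and was lost when any of 9 libraries was left out, with 0.93 (adjusted p = 0.14) without early mutant replicate 1. Without late wild-type replicate 1 it was 1.73 (adjusted p = 0.0025), and the late log2 fold change was 1.64 (adjusted p = 0.029). The authors' deposited table gives an early log2 fold change of 1.73 with a q-value of 0.013. Slc16a7, which encodes the carrier MCT2, was close to absent, with 0 to 17 counts in a library.

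Promoters of all members called in the averaged effect were searched for the motif below. Only those with a match, the promoters of both carriers, are printed. The sequences are the 250 bases before each gene's start, from RefSeq on GRCm38.p6, 5′ to 3′ on the gene's strand. The submitters' processing notes name GRCm39, so the coordinates are those of the reference table and not of the files. Capitals mark ACGTG, a form of the core of the hypoxia response element bound by HIF, searched on both strands, so also as CACGT. The form GCGTG was neither marked nor counted. The Slc16a1 window is chr3:104638414-104638663 on the plus strand and the Slc16a3 window chr11:120948817-120949066 on the plus strand.
Slc16a1: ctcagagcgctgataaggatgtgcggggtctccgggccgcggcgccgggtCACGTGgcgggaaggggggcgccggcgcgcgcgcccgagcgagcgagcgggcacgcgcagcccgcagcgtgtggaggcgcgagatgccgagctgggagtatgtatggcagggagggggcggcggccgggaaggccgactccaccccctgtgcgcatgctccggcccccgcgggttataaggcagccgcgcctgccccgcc
Slc16a3: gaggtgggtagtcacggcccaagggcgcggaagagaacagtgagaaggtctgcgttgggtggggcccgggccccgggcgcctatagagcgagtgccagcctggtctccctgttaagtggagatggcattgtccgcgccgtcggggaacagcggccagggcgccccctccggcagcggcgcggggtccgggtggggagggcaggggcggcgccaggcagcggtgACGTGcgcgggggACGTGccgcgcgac

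In Slc16a1 the 2 matches overlap as the palindrome CACGTG, which is also an E-box, and in Slc16a3 they begin 27 and 14 bases before the start. The motif occurs in 16.6% of the 32851 windows of this length in the table and in 19 of 52 windows of 33 members (36.5%). Pfkp and Eno3, the other called members, have a window with no match to ACGTG. Their windows do hold the other form, as GCGTG in Pfkp and on the other strand, as CACGC, in Eno3. The Slc16a1 window holds it too and the Slc16a3 window does not. How often that form occurs in all windows was not counted. A match is a description of letters and not a bound site.

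Bsg encodes basigin, the chaperone of MCT1 and MCT4, and was by far the most abundant member at a mean of 11277 FPKM, which ranks it 6 among all genes of the table. FPKM, the authors' value scaled to gene length and library size, is used wherever genes are compared with each other. Bsg stood at 23019, 18629 and 25296 CPM in early mutants against 22438, 12380.2 and 18642 CPM in early wild type, and at 16882, 13327 and 16065 CPM in late mutants against 19129, 31236 and 24465 CPM in late wild type. Early the genotypes overlap, and late every mutant library is below every wild-type library. Between genotypes the log2 fold change was 0.32 ± 0.27 early (adjusted p = 0.68) and -0.69 ± 0.27 late (adjusted p = 0.11), or -0.72 late (adjusted p = 0.061) without late wild-type replicate 1, and the late effect minus the early effect was -1.02 (unadjusted p = 0.015, adjusted p = 0.3).

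Embigin (Emb), a relative of basigin that can also carry monocarboxylate transporters to the membrane, is not among the 36 and was held in a list of 23 other isoforms and partners, of which 18 were tested. By edgeR it was the only one of the 18 called early, late or over the average, where DESeq2 called 1, 2 and 4 and limma-voom 1, 1 and 3. It rose by 2.34 ± 0.39 on the log2 scale early (adjusted p = 0.0041) and by 2.04 ± 0.39 late (adjusted p = 0.0077), or 2 late (adjusted p = 0.0095) without late wild-type replicate 1. It stood at 32, 19.8 and 14.7 CPM in early mutants against 6.74, 3.03 and 3.35 CPM in early wild type, and at 18.8, 14.8 and 28.3 CPM in late mutants against 3.84, 6.82 and 4.43 CPM in late wild type. No mutant library overlaps a wild-type library at either stage. The myeloid markers given above separate the genotypes in the same way, and their part in the Emb difference was not tested.

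**Figure D3:**
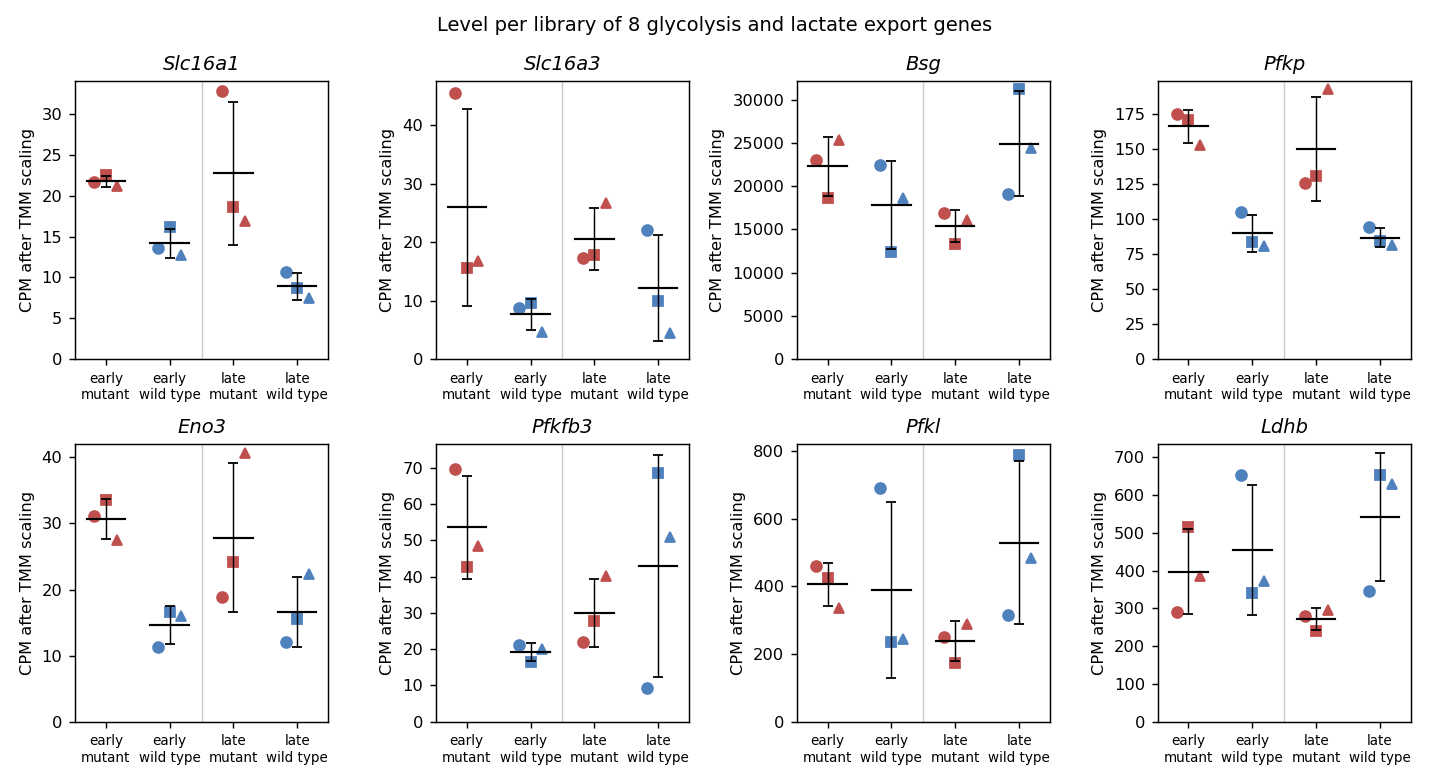
CPM after TMM scaling of 8 members in each library, on linear axes that start at 0. Red marks are mutant and blue marks wild-type libraries, the circle, square and triangle are replicates 1, 2 and 3, and bars are the mean ± SD of 3 libraries. Slc16a1 and Pfkp separate the genotypes at both stages, Slc16a3, Eno3 and Pfkfb3 early, and Bsg, Pfkl and Ldhb late with mutants lower.

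Glucose enters through the facilitative transporters GLUT1 (Slc2a1) and GLUT3 (Slc2a3). By FPKM, Slc2a1 made up 98.2% to 99.7% of their sum in every library. Slc2a1 stood at 576, 402 and 446 CPM in early mutants against 352, 322 and 224 CPM in early wild type, and at 402, 313 and 458 CPM in late mutants against 506, 219 and 152 CPM in late wild type. The early groups do not overlap, and the late groups overlap because late wild-type replicate 1 is the second highest of the 12 libraries. The fitted log2 fold change was 0.66 ± 0.35 early (adjusted p = 0.59), 0.42 ± 0.35 late (adjusted p = 0.45) and 0.54 ± 0.25 averaged (adjusted p = 0.19). Without late wild-type replicate 1 the late value was 1.21 (adjusted p = 0.011). Slc2a3 lay between 2.97 and 14.5 CPM over the 12 libraries, with no call.

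Hexokinases trap glucose as glucose 6-phosphate, and Gpi1 converts that to fructose 6-phosphate. Hk2, the inducible form, was the main hexokinase with 51.9% to 78.9% of the family's FPKM, ahead of the ubiquitous Hk1. Hk2 stood at 89.3, 61.7 and 65.5 CPM in early mutants against 36.6, 32 and 60.8 CPM in early wild type, and at 30.5, 53.9 and 48.1 CPM in late mutants against 68, 32.9 and 68.3 CPM in late wild type. The genotypes separate early, by a narrow margin, and overlap late. The fitted log2 fold change was 0.74 ± 0.33 early (adjusted p = 0.53) and -0.35 ± 0.33 late (adjusted p = 0.5), and the late minus the early effect was -1.09 (unadjusted p = 0.03, adjusted p = 0.38).

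Hk1 stood at 35, 19.6 and 21.8 CPM in early mutants against 12.3, 18.2 and 16.3 CPM in early wild type, and at 25.1, 24.6 and 23.4 CPM in late mutants against 25.4, 13.4 and 16.4 CPM in late wild type. Its 3 late mutant libraries were nearly equal, and 1 late wild-type library, replicate 1, was as high. The averaged log2 fold change was 0.56 ± 0.21 (adjusted p = 0.11). Without late wild-type replicate 1 it was 0.8 (adjusted p = 0.013), and the late value was 0.84 (adjusted p = 0.053). Hkdc1, a further hexokinase-like gene, was near the limit of detection, at 1, 1 and 1 counts in early mutants against 1, 12 and 53 counts in early wild type, and 8, 0 and 23 counts in late mutants against 0, 32 and 0 counts in late wild type. Its early log2 fold change of -4.33 ± 1.91 (unadjusted p = 0.035, adjusted p = 0.53) is a fitted value that rests on these few counts. Gpi1 stood at 381, 296 and 282 CPM in early mutants against 320.3, 192 and 263 CPM in early wild type, and at 239.7, 276 and 240.3 CPM in late mutants against 321, 282 and 221 CPM in late wild type, with log2 fold changes of 0.31 ± 0.26 and -0.12 ± 0.26 (adjusted p = 0.68 and 0.79).

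Phosphofructokinase commits sugar to glycolysis, and of its 3 isoforms edgeR called Pfkp alone. Pfkp, the platelet type, rose over both stages by 0.84 ± 0.17 on the log2 scale (adjusted p = 0.0063), a call that held without each library in turn. It stood at 175, 171 and 153 CPM in early mutants against 105, 84 and 80.5 CPM in early wild type, and at 126, 131 and 193 CPM in late mutants against 94.3, 84.3 and 81.8 CPM in late wild type. The genotypes do not overlap at either stage. Within a stage the log2 fold change was 0.89 ± 0.25 early (adjusted p = 0.17) and 0.79 ± 0.25 late (adjusted p = 0.063), or 0.98 late (adjusted p = 0.016) without late wild-type replicate 1. The authors' deposited table gives Pfkp an early log2 fold change of 0.85 with a q-value of 0.0025.

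Pfkl, the liver type, was the most abundant of the 3. It stood at 459, 425 and 336 CPM in early mutants against 690.3, 235 and 244 CPM in early wild type, and at 251, 174 and 290.3 CPM in late mutants against 316, 789 and 484 CPM in late wild type. Early the mutants lie within the wild-type range, and late all mutant libraries are below all wild-type ones. The log2 fold change was 0.06 ± 0.39 early (adjusted p = 0.96) and -1.15 ± 0.39 late (adjusted p = 0.079), or -1.28 late (adjusted p = 0.032) without late wild-type replicate 1, and DESeq2 and limma-voom called it lower late. The authors' deposited table gives Pfkl a late log2 fold change of -1.24 with a q-value of 0.024. Pfkm, the muscle type, stayed between 32.3 and 55.3 CPM in all libraries with log2 fold changes of 0.19 and -0.03. As a share of the FPKM of the 3 isoforms, Pfkp made up 24.7% ± 1.45 in early mutants against 17.4% ± 5.19 in early wild type, and 32% ± 3.5 in late mutants against 13% ± 5.08 in late wild type (SD, n = 3 each). Its lowest mutant library exceeded its highest wild-type library at both stages, 23.3% against 20.7% early and 28% against 18.5% late. The shares were not tested.

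**Figure D4:**
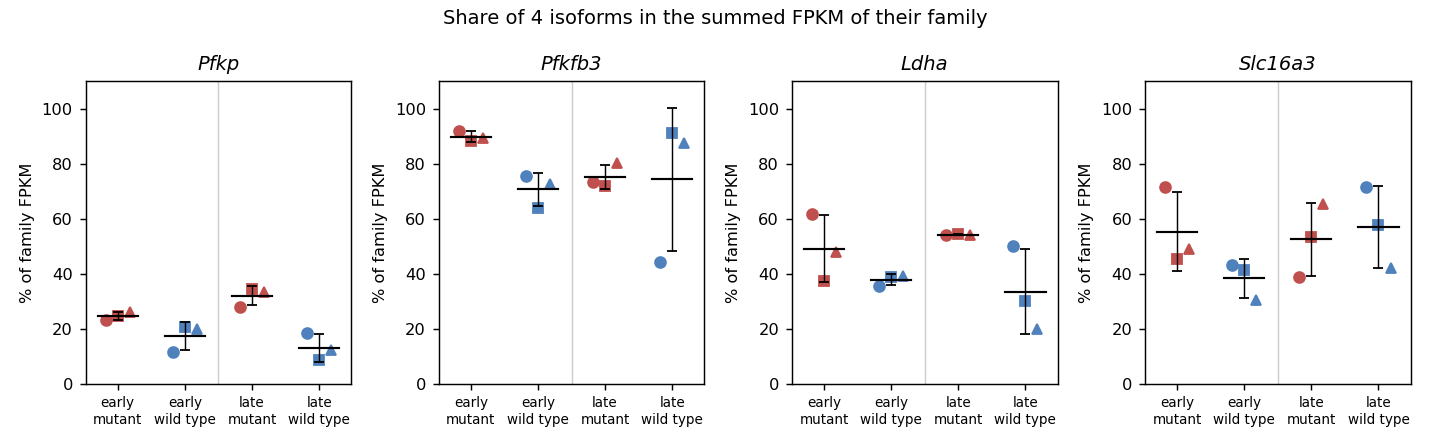
Share of 1 isoform in the summed FPKM of its family in each library, in percent, for Pfkp among 3 phosphofructokinases, Pfkfb3 among 4 regulators, Ldha among 2 lactate dehydrogenases and Slc16a3 among 3 carriers. Red marks are mutant and blue marks wild-type libraries, the circle, square and triangle are replicates 1, 2 and 3, and bars are the mean ± SD of 3 libraries. Pfkp shares separate the genotypes at both stages, Pfkfb3 shares early and Ldha shares late, while Slc16a3 shares overlap late.

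The PFKFB enzymes make and remove fructose 2,6-bisphosphate, the strongest activator of phosphofructokinase, and Pfkfb3 is the form with the highest kinase activity. Pfkfb3 had 44.4% to 91.9% of the family's FPKM. It stood at 69.7, 42.8 and 48.5 CPM in early mutants against 21.1, 16.4 and 20 CPM in early wild type, and at 22.1, 27.7 and 40.2 CPM in late mutants against 9.18, 68.7 and 50.9 CPM in late wild type. Early the lowest mutant library is above the highest wild-type library, and late the wild-type libraries lie on either side of the mutants. Its log2 fold change was 1.48 ± 0.48 early (adjusted p = 0.31) and -0.52 ± 0.47 late (adjusted p = 0.49). The late minus the early effect was -2 ± 0.67 (unadjusted p = 0.008, adjusted p = 0.25), the largest in size among members of at least 5 CPM. Without late wild-type replicate 1, Pfkfb3 passed the threshold in all 3 tests: 1.52 early (adjusted p = 0.0082), -0.87 late (adjusted p = 0.044) and -2.39 for their difference (adjusted p = 0.015). The authors' deposited table gives Pfkfb3 an early log2 fold change of 1.44 with a q-value of 2.9e-05. Pfkfb1, Pfkfb2 and Pfkfb4 stayed at or below 7.5 CPM. Pfkfb2 was lower in every early mutant library, at 3.63, 3.28 and 3.37 CPM in early mutants against 5.61, 5.06 and 6.11 CPM in early wild type, with a log2 fold change of -0.71 ± 0.39 (adjusted p = 0.59).

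Aldolase splits fructose 1,6-bisphosphate, and triose phosphate isomerase (Tpi1) makes both products usable. Aldoc, best known from brain, held 95.2% to 98.1% of the Aldoa and Aldoc sum by FPKM. Aldoa had a mean of only 4.07 FPKM, against 681 FPKM for Tpi1. In the repeat count described below, 13.5% of the sequence words in Aldoa's main transcript also occur in other genes, against 0% in Aldoc's. How reads with several matches were counted is not given, so the Aldoa level and the Aldoc share are uncertain. Aldoc stood at 378, 390.1 and 374 CPM in early mutants against 492, 235 and 295 CPM in early wild type, and at 278, 244 and 269.7 CPM in late mutants against 329, 543 and 418 CPM in late wild type. The genotypes overlap early and separate late with mutants lower, at log2 fold changes of 0.16 ± 0.28 (adjusted p = 0.84) and -0.7 ± 0.28 (adjusted p = 0.12), or -0.73 late (adjusted p = 0.063) without late wild-type replicate 1. Aldoa stood at 12.2, 8.39 and 8.32 CPM in early mutants against 6.48, 6.02 and 5.7 CPM in early wild type, and at 7.19, 5.03 and 4.34 CPM in late mutants against 10.2, 12 and 5.21 CPM in late wild type. Its late minus early effect was -1.39 (unadjusted p = 0.011, adjusted p = 0.27). Tpi1 stood at 1436, 1121 and 1103 CPM in early mutants against 1022, 602 and 1027 CPM in early wild type, and at 712, 963 and 885 CPM in late mutants against 1166, 1260.2 and 759.5 CPM in late wild type, with log2 fold changes of 0.47 ± 0.28 and -0.32 ± 0.28 (adjusted p = 0.61 and 0.47).

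The later steps of glycolysis yield ATP and NADH. Several of its genes have many near-identical copies in the mouse genome, so their counts are uncertain. Of the 50-base words in the main transcript, 82.5% of Gapdh's, 72.2% of Eno1's, 68% of Pgk1's, 41.5% of Pgam1's and 34.4% of Pkm's also occur in transcripts of other genes, against 0% for Slc16a1, Slc16a3, Pfkp, Eno3 and Bsg. The sources used here do not say how reads with several matches were counted. Gapdh, an abundant enzyme in most tissues, had a mean of only 42.2 FPKM here, against 971 FPKM for Eno1 and 681 FPKM for Tpi1.

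None of Gapdh, Pgk1 and Eno1 was called by edgeR, DESeq2 or limma-voom. Gapdh stood at 117, 78 and 85.6 CPM in early mutants against 66.9, 56.8 and 73 CPM in early wild type, and at 68.6, 74.7 and 64 CPM in late mutants against 102, 56.1 and 54.1 CPM in late wild type. Its genotypes separate early and overlap late, with log2 fold changes of 0.51 ± 0.28 (adjusted p = 0.59) and -0.04 ± 0.28 (adjusted p = 0.95). Pgk1, phosphoglycerate kinase, stood at 456, 440.3 and 398 CPM in early mutants against 571, 238 and 372 CPM in early wild type, and at 453, 366 and 362 CPM in late mutants against 277, 621 and 378 CPM in late wild type. Eno1, the main enolase, stood at 2624, 2182 and 2347 CPM in early mutants against 2234, 1549 and 1322 CPM in early wild type, and at 2038, 1245 and 2183 CPM in late mutants against 2533, 2213 and 1079 CPM in late wild type. Both overlap between genotypes, with Eno1 at 0.49 ± 0.31 early (adjusted p = 0.63) and -0.09 ± 0.31 late (adjusted p = 0.87).

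Eno3, the enolase best known from muscle, rose over both stages by 0.91 ± 0.22 on the log2 scale (adjusted p = 0.019). It stood at 31.1, 33.5 and 27.5 CPM in early mutants against 11.3, 16.6 and 16 CPM in early wild type, and at 18.9, 24.1 and 40.6 CPM in late mutants against 12, 15.5 and 22.4 CPM in late wild type. Early the genotypes are far apart, and late they overlap by 1 library. Between genotypes the log2 fold change was 1.07 ± 0.32 early (adjusted p = 0.22) and 0.74 ± 0.31 late (adjusted p = 0.13), and without late mutant replicate 3 the averaged value was 0.79 (adjusted p = 0.051). The authors' deposited table gives an early log2 fold change of 1.03 with a q-value of 0.0051. Eno3 supplied at most 0.756% of enolase FPKM, or at most 2.62% with main transcript lengths. The authors' FPKM imply 5457 bases for Eno3, against 1564 bases for its main transcript. The 11 muscle markers summed to 19.9 to 39.5 CPM in early mutants against 25.2 to 34.6 CPM in early wild type, and to 14.4 to 67.6 CPM in late mutants against 28.2 to 52.1 CPM in late wild type, so their sums overlap at both stages.

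Eno2, the neuronal enolase, stood at 6.56, 6.31 and 3.4 CPM in early mutants against 1.31, 2.15 and 4.33 CPM in early wild type, and at 5.26, 5.92 and 4.53 CPM in late mutants against 4.66, 1.81 and 1.63 CPM in late wild type. A single wild-type library at each stage reached into the mutant range, and the averaged log2 fold change was 1 ± 0.34 (adjusted p = 0.084). DESeq2 called Eno2 higher over the average, and limma-voom did not call it. Pgam1, phosphoglycerate mutase, stood at 389, 279 and 308 CPM in early mutants against 272, 195 and 178 CPM in early wild type, and at 341, 266 and 305 CPM in late mutants against 208, 236 and 127 CPM in late wild type. The genotypes do not overlap at either stage, and the averaged log2 fold change of 0.63 ± 0.19 missed the threshold by edgeR (adjusted p = 0.055). Over the average DESeq2 and limma-voom called Pgam1 higher. Its muscle form Pgam2 ranged from 0.262 to 5.47 CPM. Pkm, pyruvate kinase, stood at 3137, 2273 and 2727 CPM in early mutants against 2391, 1917 and 1361 CPM in early wild type, and at 2999, 1854 and 2349.6 CPM in late mutants against 2685, 1477 and 1183 CPM in late wild type, with an averaged log2 fold change of 0.48 ± 0.22 (adjusted p = 0.19). Gene counts do not tell its M1 and M2 splice forms apart. Without late wild-type replicate 1, the averaged effects were 0.76 for Pgam1 (adjusted p = 0.014), 1.41 for Eno2 (adjusted p = 0.01) and 0.78 for Pkm (adjusted p = 0.011).

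**Figure D5:**
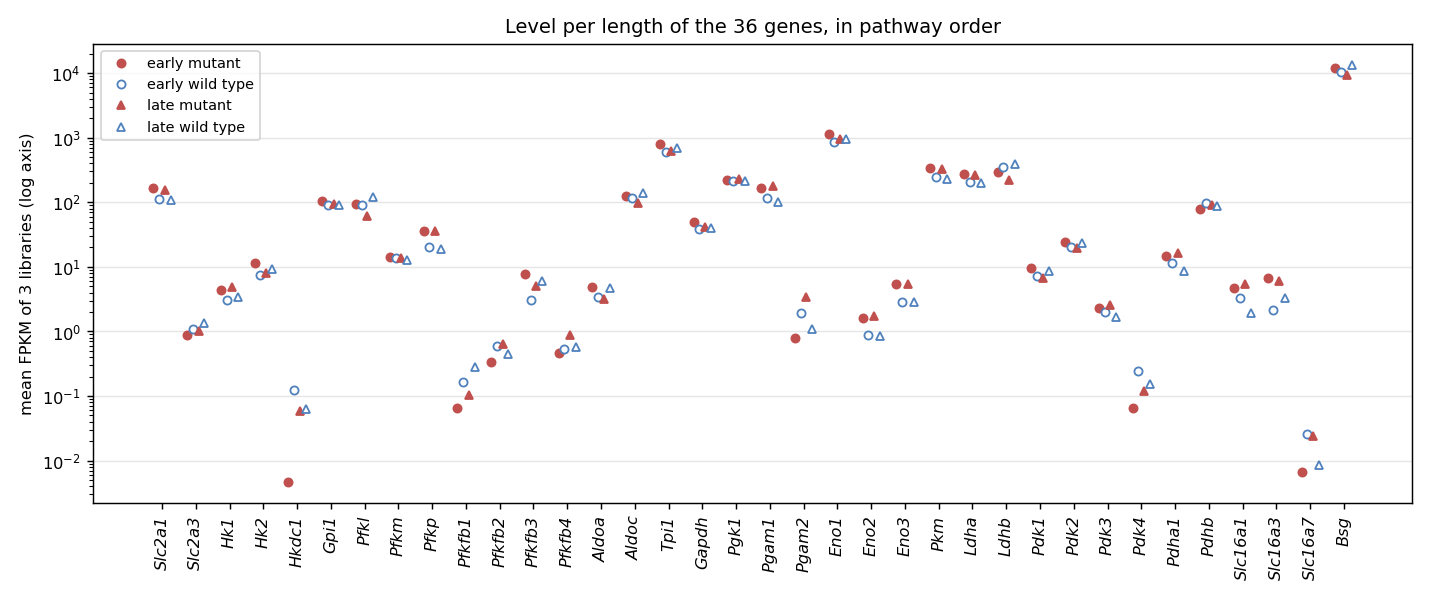
Mean FPKM of 3 libraries for each of the 36 genes, on a log axis, in pathway order from glucose uptake on the left to export on the right. Filled red marks are mutant and open blue marks wild type, circles early and triangles late. A group with a mean of 0 would not be drawn, and none occurs. Bsg stands at 9356 FPKM or more in each group, Eno1 and Tpi1 follow, and Hkdc1, Pfkfb1, Pfkfb2, Pfkfb4, Pdk4 and Slc16a7 stay below 1 FPKM.

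Lactate dehydrogenase joins pyruvate and lactate, and a tetramer rich in the A subunit favours lactate while one rich in the B subunit favours pyruvate. Ldhb stood at 291, 515 and 387 CPM in early mutants against 654, 340.1 and 372 CPM in early wild type, and at 279, 241 and 296 CPM in late mutants against 347, 652 and 629 CPM in late wild type. Early the genotypes overlap, and late every mutant library is below every wild-type library. The fitted log2 fold change was -0.2 ± 0.31 early (adjusted p = 0.82) and -1 ± 0.31 late (adjusted p = 0.063), or -1.11 late (adjusted p = 0.019) without late wild-type replicate 1. The authors' deposited table gives Ldhb a late log2 fold change of -1.09 with a q-value of 0.024.

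Ldha stood at 1912, 1256 and 1462 CPM in early mutants against 1478, 879 and 979 CPM in early wild type, and at 1345, 1179 and 1424 CPM in late mutants against 1433, 1145 and 643 CPM in late wild type. The genotypes overlap at both stages, with log2 fold changes of 0.47 ± 0.3 (adjusted p = 0.62) and 0.29 ± 0.3 (adjusted p = 0.54), or 0.69 late (adjusted p = 0.098) without late wild-type replicate 1. Over the average limma-voom called Ldha higher, and edgeR and DESeq2 did not call it. The share of Ldha in the FPKM of both was 61.6%, 37.3% and 48% in early mutants against 35.5%, 38.7% and 39.1% in early wild type. Late it was 54.1%, 54.5% and 54% in mutants against 50.2%, 30% and 20% in wild type. The late mutants are close to each other and above each wild-type library, and the shares were not tested. Which subunit is more abundant depends on the length used: the authors' FPKM imply 5342 bases for Ldha, against 1766 bases for its main transcript, and with main transcript lengths Ldha holds 78.2% ± 0.156 in late mutants against 58.3% ± 16.2 in late wild type (SD, n = 3 each). Part of these transcripts, 17.1% of Ldha's and 27% of Ldhb's 50-base words, also occurs in other genes.

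Pyruvate dehydrogenase sends pyruvate into the mitochondrial citric acid cycle, and its 4 kinases (Pdk1 to Pdk4) switch it off. No kinase was called by edgeR, DESeq2 or limma-voom. Pdk2, the most abundant by FPKM, stood at 71.3, 58.5 and 67.5 CPM in early mutants against 63.8, 62.9 and 31 CPM in early wild type, and at 56, 42 and 47.9 CPM in late mutants against 95.9, 48.1 and 39.1 CPM in late wild type. Pdk1, a textbook target of hypoxia signalling, stood at 69.2, 57.3 and 62.2 CPM in early mutants against 40.1, 40.7 and 50.9 CPM in early wild type, and at 35.8, 30.3 and 51.6 CPM in late mutants against 58.1, 82 and 32.9 CPM in late wild type. Pdk1 separates the genotypes early and not late, with log2 fold changes of 0.52 ± 0.31 (adjusted p = 0.61) and -0.56 ± 0.31 (adjusted p = 0.24) and a late minus early effect of -1.07 (unadjusted p = 0.022, adjusted p = 0.34). Pdk3 ranged from 18.2 to 37.6 CPM and Pdk4 from 0.0344 to 1.29 CPM.

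Pdha1 and Pdhb encode the E1 subunits of the enzyme, and the kinases act on the alpha subunit, from Pdha1. Pdha1 stood at 46.8, 40.7 and 46.9 CPM in early mutants against 31.6, 41 and 21.4 CPM in early wild type, and at 57.5, 27 and 49.7 CPM in late mutants against 40.2, 15.4 and 18.6 CPM in late wild type. The genotypes overlap by 1 library at each stage, with a log2 fold change of 0.85 ± 0.36 late (adjusted p = 0.13) and 1.52 (adjusted p = 0.0095) without late wild-type replicate 1. Pdhb stood at 121, 143 and 135 CPM in early mutants against 243, 113 and 123 CPM in early wild type, and at 167, 113 and 138 CPM in late mutants against 81.5, 205 and 174 CPM in late wild type. Its genotypes overlap at both stages, with log2 fold changes of -0.26 ± 0.33 and -0.14 ± 0.33 (adjusted p = 0.78 and 0.81).

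Late libraries were also set against early ones within a genotype, where stage and batch cannot be told apart. EdgeR called 0 of 36 members in mutants and 0 of 36 in wild type, against 0% of all genes in each, and DESeq2 and limma-voom also called 0. In mutants 3 members had an unadjusted p under 0.05, against 6.53% of all genes: Hk2 at -0.71, Aldoa at -0.81 and Pdk1 at -0.68 on the log2 scale. In wild type 2 did, against 4.03% of all genes: Pfkfb3 at 1.16 and Slc16a1 at -0.67. The adjusted p was 0.76 for each of the mutant values and 1 for the wild-type values.

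Neighbouring pathways were described with lists of other genes. Among 15 HIF target genes outside glycolysis, 1 rose and 0 fell early, 2 rose and 1 fell late, and 3 rose over the average, by edgeR, against the 0.59%, 5.47% and 6.85% of all genes given above. DESeq2 called 1, 4 and 6 of them and limma-voom 1, 3 and 6. Their median log2 fold change was 0.57 early, 0.08 late and 0.3 averaged, against -0.11, 0 and -0.08 over all genes. Ndrg1, a stress-responsive gene, rose by 1.78 ± 0.39 early (adjusted p = 0.04) and 1.6 ± 0.39 late (adjusted p = 0.026) on the log2 scale, and stood at 11.7, 10.3 and 5.2 CPM in early mutants against 2.96, 2.77 and 2.19 CPM in early wild type, and at 5.91, 9.4 and 8.78 CPM in late mutants against 3.18, 1.65 and 3.11 CPM in late wild type. Car9, a membrane carbonic anhydrase that handles acid released by cells, rose late by 1.09 ± 0.28 (adjusted p = 0.031), and Mxi1, a repressor that opposes Myc, fell late with a log2 fold change of -1.17 ± 0.29 (adjusted p = 0.028). Of 10 HIF factors and regulators, edgeR called 0 within a stage, where 2 early and 2 late had an unadjusted p under 0.05, DESeq2 called 0 early and 1 late and limma-voom 0. Arnt2, a HIF partner best known from neurons, fell over the average with a log2 fold change of -1.01 ± 0.23 (adjusted p = 0.01).

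Of 9 pentose phosphate genes, 8 had an early and 7 a late log2 fold change above 0, against the 43.1% and 50.1% of all genes given above. EdgeR called 0 within a stage and 1 over the average, G6pdx, the entry enzyme, which rose by 0.69 ± 0.2 (adjusted p = 0.044). At an unadjusted p under 0.05 there were 1 early and 2 late, DESeq2 called 0 within a stage and 3 over the average, and limma-voom 0 early, 2 late and 3 over the average. G6pdx also rose late, by 1.16 (adjusted p = 0.0095), when late wild-type replicate 1 was left out. Of 8 genes for mitochondrial pyruvate entry and other dehydrogenase subunits edgeR and DESeq2 called 0 early, late or over the average, where 0, 5 and 2 had an unadjusted p under 0.05, and limma-voom called 0 early, 2 late and 2 over the average. Of 9 brakes and gluconeogenesis genes, 8 were tested and Fbp2, the muscle fructose bisphosphatase, fell late with a log2 fold change of -1.9 ± 0.48 (adjusted p = 0.03).

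Of 10 genes of the endothelial pump and its ion transport, 9 were tested and edgeR called 0 early, where 2 had an unadjusted p under 0.05, DESeq2 called 1 and limma-voom 0. Late, Car12, a membrane carbonic anhydrase, rose by 1.8 ± 0.38 (adjusted p = 0.012), and Atp1b1, the beta subunit of the Na+/K+ pump, fell with a log2 fold change of -0.97 ± 0.26 (adjusted p = 0.035). Over the average Car2, the cytosolic carbonic anhydrase, rose by 1.24 ± 0.25 (adjusted p = 0.0045) and Car12 by 1.03 ± 0.26 (adjusted p = 0.024). Car2 also rose late, by 1.25 (adjusted p = 0.03), when late wild-type replicate 1 was left out. Slc4a11 and Aqp1, both abundant in corneal endothelium, were not called by edgeR at either stage or over the average. The late calls of Ndrg1, Car9, Mxi1, Fbp2, Car12 and Atp1b1 held without late wild-type replicate 1, at log2 fold changes of 1.88, 1.35, -1.29, -2.07, 2.26 and -1.05.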

How the data were processed

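Read counts for each gene, as whole numbers, and FPKM values were deposited by the authors, who also deposited a table for each of their comparisons, early and late, holding log2 fold changes and q-values, per the file headers. Libraries were made from polyA RNA with a kit that keeps the strand, per the labels' protocols. GRCm39 is the build named in the submitters' processing notes, and HISAT2, HTSeq, fastp and DESeq2 are the tools, without versions. The sources used here do not give the strand setting, the treatment of reads with several matches or any batch adjustment. From the counts, genotype effects were tested with edgeR 4.0.16 in R 4.3.3: TMM scaling, a filterByExpr filter by group (4 groups), and the quasi-likelihood F test with robust dispersions, all 12 libraries in 1 fit with 8 residual degrees of freedom. P-values were adjusted by Benjamini-Hochberg over all 17965 genes tested, with a threshold of 0.05. The common biological coefficient of variation was 0.464, and 14796 genes were removed by the filter. Standard errors come from the F statistic. The fit was checked on simulated data.

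Alternatives were DESeq2 1.42.0 size factors, no filter, limma-voom with sample weights (limma 3.58.1), a filter of 5 CPM in 3 libraries, the Wald test of DESeq2, the libraries of a stage alone, a replicate block, leaving out each library, and leaving out late wild-type replicate 1 together with early wild-type replicate 2. The members and lists were chosen with earlier results of these data known. A member has its value in every library given where its adjusted or unadjusted p was under 0.05 in a genotype comparison or where it leads its step by FPKM, and Ldha was added after its values were seen. Repeats between genes were counted in GENCODE M21 transcripts of GRCm38, used for names and lengths only. P-values measure the spread between libraries, whose source animals are not given. Not every gene of the neighbouring lists is reported here.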

Additional observations from a re-analysis of the deposited data

How the results depend on the processing

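The main edgeR fit called 0 members early, 1 late, 0 for the difference between stages and 4 over the average, and 106, 983, 1 and 1230 of all genes. Without a low-count filter the members called were 3, 2, 1 and 7, and of all genes 361, 1507, 297 and 1801. DESeq2's Wald test called 2, 4, 0 and 6 members and 237, 2478, 327 and 2160 genes, and limma-voom with sample weights 1, 6, 0 and 10 members and 148, 1728, 91 and 2306 genes. With at least 5 CPM in 3 libraries 3 members were called late, and DESeq2 size factors left 0 genes for the difference between stages. In fits of the libraries of a stage alone 1 member was called early, Pfkfb3, and of all genes 489 late. With late wild-type replicate 1 and early wild-type replicate 2 both left out there were 0, 14, 1 and 11 members and 125, 4371, 86 and 3285 genes. Leaving out 1 library at a time gave 0 to 3 members early, 0 to 12 late, 0 to 1 for the difference and 2 to 13 over the average, and 51 to 179, 229 to 3909, 0 to 199 and 566 to 3004 of all genes. The cause of these shifts was not tested. In the comparisons of late with early libraries the members called stayed at 0 in the alternatives run.

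Same-numbered mutant and wild-type libraries did not deviate together (correlations from -0.088 to 0.081). These values show no pairing by number, but they cannot exclude it. With the number as a replicate block 0, 1, 0 and 4 members were called, and 88, 711, 1 and 1036 genes.

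Of 1382 values of single members under an alternative, 1259 kept their direction and side of the threshold, 77 passed it, 13 no longer passed and 33 turned round, all of the last among uncalled values. With late wild-type replicate 1 and early wild-type replicate 2 both left out these were -0.18 for Pfkl, -0.03 for Aldoc and -0.11 for Pgk1 early, and 0.13 for Gpi1, 0.45 for Gapdh, 0.27 for Eno1 and 0.28 for Pdk2 late. Late Gapdh, -0.04 in the main fit, was 0.01 without a filter, 0.01 with the stricter filter, 0.16 by limma-voom and 0.02 with the replicate block, and late Eno1 was 0.2 by limma-voom. With 1 library left out, log2 fold changes ran early from -0.18 to 0.78 for Pfkl, -0.03 to 0.54 for Aldoc, -0.11 to 0.52 for Pgk1, -0.38 to 0.18 for Ldhb and -0.43 to 0.19 for Pdhb. Late they ran from -0.25 to 0.14 for Gpi1, -0.19 to 0.46 for Gapdh, -0.22 to 0.27 for Pgk1, -0.37 to 0.28 for Eno1, -0.56 to 0.29 for Pdk2 and -0.31 to 0.12 for Pdhb. Hkdc1, Pfkfb1, Pdk4 and Slc16a7 rest on at most 53 counts in a library, and none of them was called.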
